A study of Homo sapiens with 12 samples.

Results

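The thrombospondin family and its receptors CD36 and CD47 were examined in breast cancer cells cultured in synthetic matrices. The set was chosen by gene symbol and comprised 7 of the 23368 genes with counts, namely the ligands THBS1, THBS2, THBS3, THBS4 and COMP and the receptors CD36 and CD47. MDA-MB-231 cells, an established line of the ER− basal subtype, and T47D cells, an established line of the ER+ luminal A subtype, were grown for 3 days in poly(ethylene glycol) hydrogels carrying either the collagen mimic GFOGER or the laminin mimic IKVAV. The gel was of the same kind throughout and could be degraded by the cells, and the groups of a cell line differed in the pendant peptide. The 11 libraries analysed comprised 3 of MDA-MB-231 cells with GFOGER, 2 of MDA-MB-231 cells with IKVAV, 3 of T47D cells with GFOGER and 3 of T47D cells with IKVAV. Replicate 3 of MDA-MB-231 IKVAV, which the study left out for its quality, was not analysed here. Each replicate was RNA from 3 gels of 1 composition that had been dissolved with collagenase, and each condition was 1 cell line, so that p-values measure the spread between these pooled samples and not between patients. Between 14337035 and 18449108 reads per library fell on genes.

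Thrombospondins are secreted glycoproteins that bind matrix proteins, proteases and cell surface receptors without forming the main fibers of the matrix, and they are therefore counted among the matricellular proteins. THBS1 and THBS2 form trimers and carry type 1 repeats, which bind CD36 and through which both proteins are known to inhibit angiogenesis, and THBS1 also activates latent TGF-β. THBS3, THBS4 and COMP form pentamers and lack type 1 repeats. CD47 binds the C-terminal domain of thrombospondins and, on the surface of tumor cells, binds SIRPA on phagocytes as a "don't eat me" signal, while CD36 is in addition a fatty acid transporter and scavenger receptor.

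The members lie on separate chromosomes, and 0 of the 7 overlapped another gene of the count table. In hg19 coordinates THBS1 was at chr15:39873280-39889668, THBS2 at chr6:169615875-169654137, THBS3 at chr1:155165379-155177772, THBS4 at chr5:79331170-79379107 and COMP at chr19:18893583-18902114. The receptor genes were at chr7:80231504-80308593 for CD36 and chr3:107761941-107809935 for CD47. The 120 bases before the start site are shown for THBS1, THBS3 and CD47. THBS1 and THBS3 are the ligands that differed between the mimics in MDA-MB-231 cells by the adjusted p alone. Neither met the 2-fold rule there. CD47 is the member that differed least between the cell lines among those tested. The sequences are from RefSeq in build GRCh38.p14, which is not the build of the counts. They are read 5′ to 3′ on the strand of the gene, and capitals mark 3 short motifs found on either strand, none overlapping another. One is CATTCC, the letters bound by TEAD factors, another is the CCAAT box, and the last is the TATA box, searched as TATAAA.
THBS1, chr15:39580959-39581078, plus strand: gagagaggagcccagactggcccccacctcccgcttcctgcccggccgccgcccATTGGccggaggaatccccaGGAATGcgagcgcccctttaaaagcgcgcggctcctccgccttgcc
THBS3, first of 2 start sites, chr1:155207898-155208017, minus strand: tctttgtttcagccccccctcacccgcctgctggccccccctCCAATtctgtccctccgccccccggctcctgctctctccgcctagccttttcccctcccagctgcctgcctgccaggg
CD47, chr3:108091032-108091151, minus strand: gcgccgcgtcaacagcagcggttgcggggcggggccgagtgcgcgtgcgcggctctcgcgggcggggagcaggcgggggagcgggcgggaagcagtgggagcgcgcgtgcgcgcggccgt
All 7 members matched a promoter entry. Of the 27305 promoter windows of 300 bases, 14% held the TEAD motif, 35.7% the CCAAT box and 12% the TATA box, so a match describes the letters alone. The window of THBS2 held the TEAD motif 2 times and the TATA box 1 time, and that of CD47 held 0 of the 3 motifs.

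The labels of the cell lines were checked against 3 markers. VIM, an intermediate filament of mesenchymal cells, averaged 2331 cpm (reads per 1000000 reads on genes, after TMM scaling) in MDA-MB-231 cells with GFOGER and 4.44 cpm in T47D cells with GFOGER. CDH1, the epithelial cadherin, averaged 2.44 and 1015 cpm, and ESR1, the estrogen receptor, 0.721 and 270.1 cpm in the same groups. The markers thus separated the lines as labeled. Marker lists of other cell types that can supply thrombospondins were also summed. The 8 fibroblast markers summed to 19.1 to 23.3 cpm with GFOGER and 35.1 to 38.5 cpm with IKVAV in MDA-MB-231 libraries, where COL1A1 was the most abundant at 11.5 and 16.6 cpm and COL3A1 and DCN had 0 reads with IKVAV. Without COL1A1 the sum averaged 9.09 cpm with GFOGER and 20.2 cpm with IKVAV. In T47D libraries COL1A1 was at 59.6 and 57.8 cpm, the sum without it averaged 0.494 and 0.455 cpm, and FAP had 0 reads. The 6 endothelial markers summed to at most 126 cpm, and in MDA-MB-231 cells they averaged 27.5 cpm with GFOGER and 24.1 cpm with IKVAV without ESAM, the most abundant. The 6 leukocyte markers summed to at most 472 cpm, and to 8.91 and 10.7 cpm on average in the same groups without CD68. Their part in the member counts was not tested.

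In 2 libraries the replicates stood apart. The mean chi-square per gene between replicates of a condition was 16.4 and 18.6 for MDA-MB-231 GFOGER replicate 3 and 17.9 and 16.9 for T47D IKVAV replicate 3, and 2.51 to 9.92 for the remaining pairs. By another measure, the library totals implied by the deposited RPKM values fell into 2 sets. MDA-MB-231 IKVAV replicate 1, T47D IKVAV replicate 3 and all 3 T47D GFOGER libraries had implied totals of 5191201 to 5774966, and the remaining libraries 19898878 to 22840524, while their counts were alike in depth. T47D IKVAV replicate 3 was thus in the lower set and also stood apart from its replicates. With GFOGER all MDA-MB-231 libraries were in the higher set and all T47D libraries in the lower, so set and cell line cannot be told apart there. In T47D cells a fit with the set compares GFOGER with IKVAV replicate 3 alone, and in MDA-MB-231 cells with IKVAV replicate 2 alone. What the sets stand for is not given in the sources used here.

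Levels of the members spanned more than 4 orders of magnitude, as shown in the plot of levels per library. Per kb of gene length, THBS1 was the highest member in all 4 conditions, at 784 ± 3.48 cpm per kb in MDA-MB-231 cells with GFOGER (SD, n = 3), 452 ± 19.9 with IKVAV (n = 2), 122 ± 1.06 in T47D cells with GFOGER (n = 3) and 157 ± 8.25 with IKVAV (n = 3). It ranked 25, 49, 461 and 288 among the 23368 genes in these conditions. CD47 was second at 24.0 to 30.2 cpm per kb on average. THBS3 followed at 3.12 to 14.4 cpm per kb. CD36, at 1.49 and 1.85 cpm per kb in T47D cells, averaged 0.0213 and 0.0521 in MDA-MB-231 cells, below THBS2 there at 0.214 and 0.382. In T47D cells CD36 and THBS2 held the reverse order, since THBS2 averaged 0.0573 and 0.117 cpm per kb. THBS4 and COMP did not exceed 0.123 cpm per kb in any library, and the CD36 means in MDA-MB-231 cells lay in the same range.

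**Figure D1:**
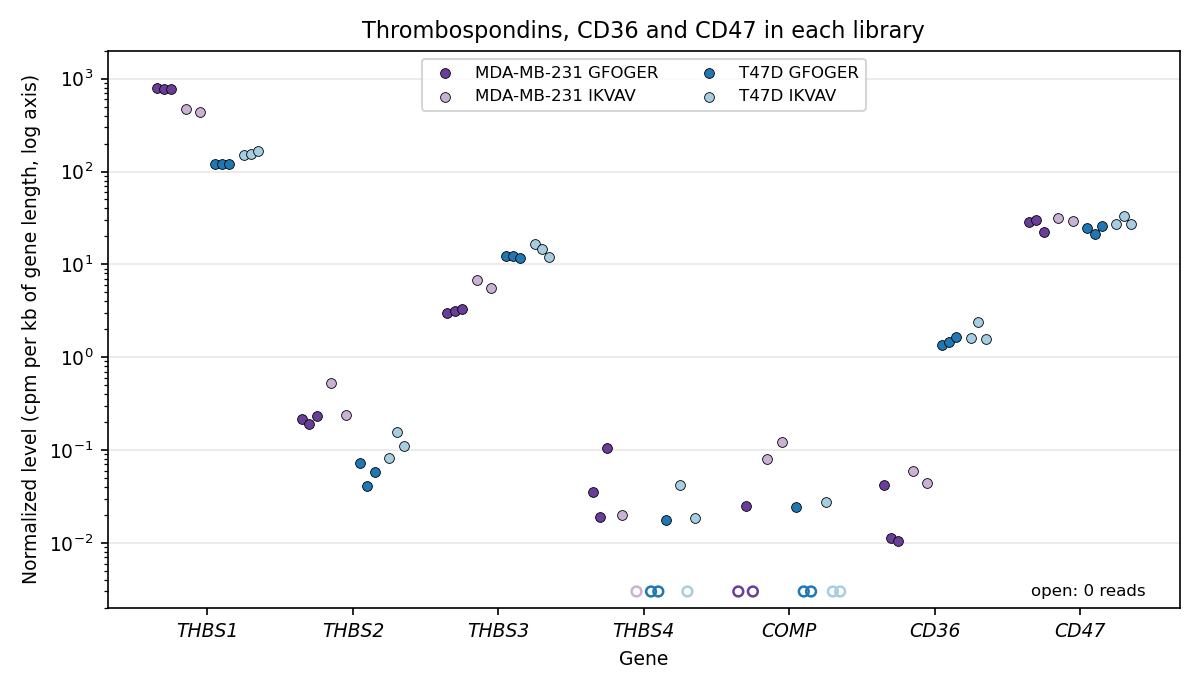
Normalized level of each member in each of the 11 libraries, in cpm per kb of gene length on a log axis, with colors for the 4 conditions and open circles near the axis for libraries with 0 reads. THBS1 lies above all other members in every library, and THBS4 and COMP lie at or near 0 reads.

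THBS1, the trimeric ligand of CD36 and CD47, rose with GFOGER in MDA-MB-231 cells and was far higher in this line than in T47D cells. Its level was 4564, 4527 and 4533 cpm in the MDA-MB-231 libraries with GFOGER and 2698 and 2534 cpm in those with IKVAV. It was 698, 709 and 708 cpm in the T47D libraries with GFOGER and 880, 888 and 966 cpm in those with IKVAV. No 2 conditions overlapped, and the direction between the mimics was opposite in the 2 lines. With GFOGER it was the most abundant gene by reads in MDA-MB-231 replicates 1 and 2 and the second, after FLNA, in replicate 3, whereas with IKVAV it ranked 10 and 12 by reads and FN1 was the most abundant. It took 0.431% to 0.441% of the reads of the MDA-MB-231 libraries with GFOGER and 0.0719% to 0.0729% of those of T47D cells with GFOGER.

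In MDA-MB-231 cells the log2 fold change of THBS1 for GFOGER against IKVAV was 0.79 (SE 0.0695, edgeR's quasi-likelihood test, Benjamini-Hochberg adjusted p = 1.96e-07), a 1.73-fold higher level. This is below the 2-fold difference that a gene also needed here to be called. In T47D cells the log2 fold change was -0.37 (SE 0.072, 95% interval -0.53 to -0.22), with an unadjusted p of 0.000167 and an edgeR adjusted p of 0.0839. Without T47D IKVAV replicate 3, whose THBS1 level is the highest of that group, the edgeR adjusted p was 0.00498 at a log2 fold change of -0.33. With the set of implied RPKM totals in the fit the log2 fold change was -0.45. That value compares GFOGER with IKVAV replicate 3 alone, the only T47D IKVAV library in the set of the GFOGER libraries. DESeq2 gave an adjusted p of 0.0012 and the edgeR fit of all 4 conditions 0.0171, both at -0.37. Apart from the test with the 2-fold threshold inside it, which asks for a larger change, the adjusted p of the 15 alternatives ranged from 0.0012 to 0.501 and 5 passed. The 5 include the fit with the set, which rests on IKVAV replicate 3. The interaction of cell line and mimic, which tests whether the responses of the 2 lines differ, was 1.17 for THBS1 (SE 0.101, edgeR adjusted p = 1.56e-07), and its adjusted p was 0.543 when the test itself asked for more than a 2-fold difference. Between the cell lines, THBS1 was 6.44-fold higher in MDA-MB-231 cells with GFOGER (log2 2.69, SE 0.0705, edgeR adjusted p = 6.87e-18) and 2.87-fold higher with IKVAV (log2 1.52, SE 0.0732, edgeR adjusted p = 1.7e-13). The endothelial markers ESAM and KDR and the leukocyte marker CD68 also rose with GFOGER in MDA-MB-231 cells, by 1.04, 0.96 and 0.61 on the log2 scale, while PECAM1 fell by 0.7 (edgeR adjusted p = 4.49e-06, 0.000117, 0.000381 and 0.00174). CD14, the other leukocyte marker tested, was at -0.29 (edgeR adjusted p = 0.175). The fibroblast and platelet markers went the other way, with 0 higher and 4 and 2 lower by the adjusted p. Of 6 mesenchymal and basal markers of MDA-MB-231 cells, 5 were higher with GFOGER by the adjusted p and 1 was lower. The background was 21.4% in each direction. AXL was called at 1.42, and VIM was at 0.67 (edgeR adjusted p = 7.65e-09 and 2.15e-06). Of 9 epithelial and luminal markers 1 passed the adjusted p, CDH1, which fell by 0.97 (edgeR adjusted p = 0.00594). The part of these markers in the THBS1 difference was not tested. Since the samples are bulk RNA, more cells with THBS1 transcripts and more transcripts per cell cannot be told apart, here and for the other members.

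THBS2, the second trimeric ligand, was sparse in both lines. Its counts were 22, 18 and 24 reads in MDA-MB-231 cells with GFOGER, and with IKVAV 47 and 23 reads. They were 7, 4 and 6 reads in T47D cells with GFOGER and 7, 15 and 11 reads with IKVAV. The GFOGER libraries thus lay below the IKVAV libraries in both lines after normalization, although in MDA-MB-231 cells the nearest libraries were at 1.37 and 1.39 cpm. The log2 fold change in MDA-MB-231 cells was -0.82 (SE 0.387, 95% interval -1.64 to -0.0074, edgeR adjusted p = 0.0964). It was -0.16 without MDA-MB-231 IKVAV replicate 1 (adjusted p = 0.838) and -1.29 without IKVAV replicate 2 (adjusted p = 0.0308), and these bounded the values of all 15 alternatives, so 1 library decided the size of the difference. In T47D cells THBS2 did not pass the filter on low counts and was not tested. MDA-MB-231 cells held more THBS2 than T47D cells with GFOGER (log2 1.88, SE 0.452, edgeR adjusted p = 0.000819) and with IKVAV (log2 1.67, SE 0.413, edgeR adjusted p = 0.00111). THBS2 passed the count filter only through MDA-MB-231 cells, so these p-values are no support for the difference. The difference with IKVAV was 1.03 without MDA-MB-231 IKVAV replicate 1 (adjusted p = 0.071). Its adjusted p over 20 alternatives lay between 0.000243 and that value. With the set of implied RPKM totals in the fit, the difference with GFOGER was 2.49 (edgeR adjusted p = 0.00116). The GFOGER libraries of the 2 lines lay in different sets, so the set was estimated from the IKVAV libraries alone.

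THBS3, a pentameric ligand without type 1 repeats, fell with GFOGER in MDA-MB-231 cells and was higher in T47D than in MDA-MB-231 cells, in both cases opposite to THBS1. Its level was 9.83, 10.3 and 10.9 cpm in MDA-MB-231 cells with GFOGER, and with IKVAV 22.5 and 18.4 cpm. It was 40.9, 41.2 and 39.2 cpm in T47D cells with GFOGER and 54.5, 48.7 and 40.2 cpm with IKVAV. The mimics did not overlap in MDA-MB-231 cells and overlapped in T47D cells, where IKVAV replicate 3 lay among the GFOGER libraries. The THBS1 level per length was accordingly 251 times that of THBS3 in MDA-MB-231 cells with GFOGER, 73.4 times with IKVAV, and for T47D cells 10.0 and 10.9 times.

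In MDA-MB-231 cells THBS3 fell with GFOGER by 0.99 on the log2 scale (SE 0.15, edgeR adjusted p = 6.75e-05), a level 1.98-fold lower than with IKVAV and just short of the 2-fold rule. Leaving out each library in turn gave values from -1.12 to -0.83, on both sides of 2-fold, with adjusted p from 5.29e-09 to 0.00471. Of the fibroblast markers, all 4 that were tested were lower with GFOGER in the same cells by the adjusted p, COL1A1 at -0.54, COL1A2 at -1.12, LUM at -1.14 and PDGFRB at -1.29 (edgeR adjusted p = 0.0145, 0.00205, 0.00977 and 0.000116). The last 3 were called. The 2 platelet markers tested were lower as well, GP1BA at -0.84 and GP6 at -1.09 (edgeR adjusted p = 0.00931 and 0.0498), and GP6 was called. Other lists went the other way in part. Of 3 endothelial markers tested 2 were higher and 1 lower by the adjusted p, and of 2 leukocyte markers 1 was higher and 0 lower. Of all genes 21.4% were higher and 21.4% lower by the adjusted p, and 6.46% were called lower. The part of these markers in the THBS3 difference was not tested. In T47D cells the log2 fold change was -0.24 (SE 0.112, 95% interval -0.48 to 0.00072, edgeR adjusted p = 0.447). With the set of implied RPKM totals in the fit, where GFOGER is compared with T47D IKVAV replicate 3 alone, it was 0.012. Without that replicate it was -0.35 (edgeR adjusted p = 0.0246). In T47D cells the adjusted p ranged from that value to 0.976 over the 15 alternatives that kept the threshold out of the test. The interaction was -0.74 (SE 0.184, edgeR adjusted p = 0.00743), and -0.59 with an adjusted p of 0.0671 without MDA-MB-231 IKVAV replicate 1, the highest of 20 alternatives without the 2-fold threshold inside the test, of which 19 passed and the lowest was 0.00127. With that threshold the adjusted p was 1. Between the cell lines THBS3 was lower in MDA-MB-231 cells, by 1.96 with GFOGER and by 1.23 with IKVAV on the log2 scale (log2 -1.96 and -1.23, SE 0.127 and 0.137, edgeR adjusted p = 1.67e-11 and 1.01e-07).

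The remaining pentameric members, THBS4 and COMP (cartilage oligomeric matrix protein), were at the limit of detection. THBS4 had 2, 1 and 6 reads in MDA-MB-231 cells with GFOGER, 1 and 0 with IKVAV, 0, 0 and 1 in T47D cells with GFOGER and 2, 0 and 1 with IKVAV. COMP had 0, 1 and 0 reads and 3 and 5 reads in the MDA-MB-231 groups, and 1, 0 and 0 reads in each T47D group. A count of 0 allows a level of up to 3 counts, or 0.163 to 0.209 cpm in these libraries, a limit that covers counting error only. Neither gene passed the filter on low counts in any comparison, and no fold change is given. The COMP libraries of MDA-MB-231 cells with IKVAV lay above those with GFOGER, by a few reads and without a test.

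**Figure D2:**
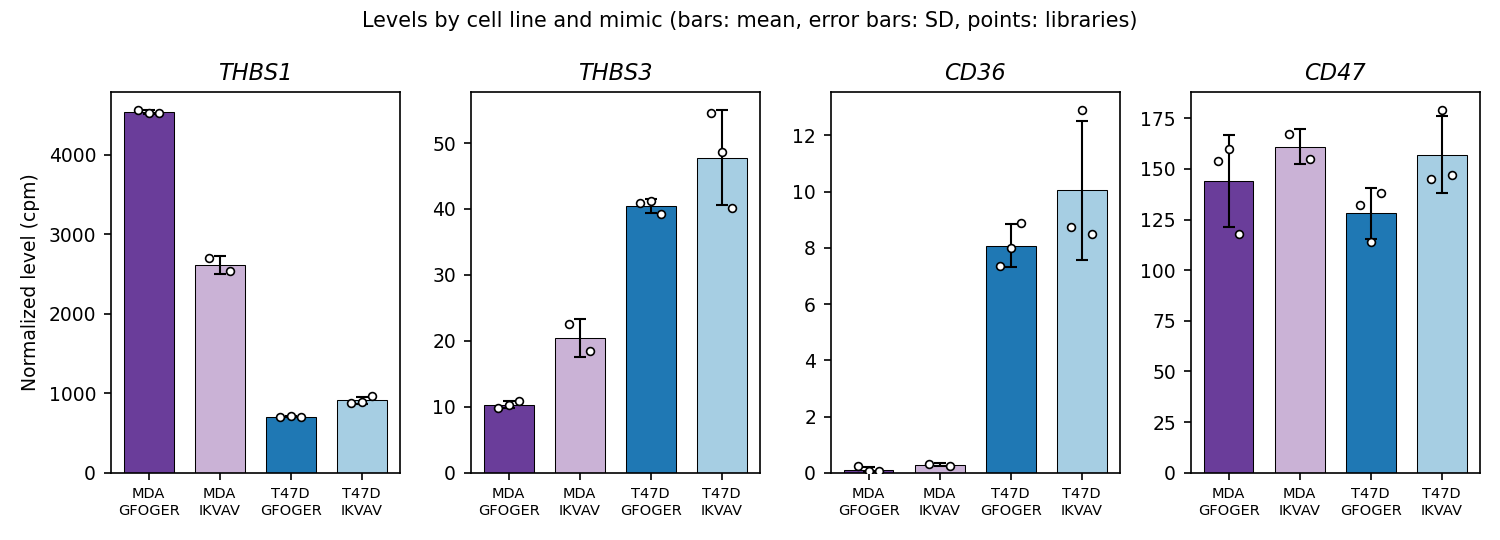
Levels of THBS1, THBS3, CD36 and CD47 in cpm by cell line and mimic (MDA stands for MDA-MB-231), with bars for means, error bars for the SD and points for libraries. THBS1 is highest and THBS3 lowest in MDA-MB-231 cells with GFOGER, CD36 is near 0 in MDA-MB-231 cells, and CD47 has overlapping ranges between the cell lines.

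CD36, the receptor for type 1 repeats, was a T47D transcript in these cultures. It had 4, 1 and 1 reads in MDA-MB-231 cells with GFOGER, and with IKVAV 5 and 4 reads, against 123, 134 and 156 reads in T47D cells with GFOGER and 129, 212 and 143 reads with IKVAV. The cell lines did not overlap. The log2 difference between MDA-MB-231 and T47D cells was -6.02 with GFOGER (95% interval -6.8 to -5.24, edgeR adjusted p = 7.65e-12) and -5.12 with IKVAV (95% interval -5.91 to -4.34, edgeR adjusted p = 1.57e-10), and rests on totals of 6 and 9 reads in the MDA-MB-231 groups. CD36 passed the count filter only through T47D cells, so these p-values are no support for the difference, which the counts describe. Without MDA-MB-231 GFOGER replicate 1, which held 4 of the 6 reads, the difference with GFOGER was -6.92 (adjusted p = 4.16e-11), and the values of 20 alternatives ran from there to -5.69. Per length, CD47 was 16.1 and 15.9 times CD36 in T47D cells, and no ratio is given for MDA-MB-231 cells because of their few CD36 reads.

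Between the mimics CD36 was at 7.36, 7.98 and 8.88 cpm in T47D cells with GFOGER and at 8.74, 12.9 and 8.49 cpm with IKVAV. The ranges overlapped, with replicate 2 of IKVAV above the rest. The log2 fold change was -0.32 (95% interval -0.71 to 0.073, edgeR adjusted p = 0.535). It was -0.068 with the set of implied RPKM totals in the fit, which compares GFOGER with IKVAV replicate 3 alone. CD36 was not tested in MDA-MB-231 cells because of its low counts. The interaction of -0.9 had a 95% interval of -2.51 to 0.72 (edgeR adjusted p = 0.443), so a difference in response was not detectable at this depth. It was -1.81 without MDA-MB-231 GFOGER replicate 1 (adjusted p = 0.21). Adipocytes and platelets, other cell types known for CD36, were checked by marker lists of 6 genes. The summed adipocyte markers were 1.13 to 1.32 cpm in T47D cells with GFOGER and 0.678 to 1.89 cpm with IKVAV, with ADIPOQ the most abundant at 0.697 and 0.639 cpm and FABP4 and CIDEA without reads. Among the platelet markers, PF4, PPBP and GP9 had 0 reads in every T47D library, and the sum of 16.6 to 18.4 cpm was mostly GP1BA, at 10.1 and 11.3 cpm on average.

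Among the 5 members tested, CD47 had the smallest difference between the cell lines with either mimic. Its level was 154, 159.8 and 118 cpm in MDA-MB-231 cells with GFOGER, and with IKVAV 167 and 155 cpm. It was 132, 114 and 138 cpm in T47D cells with GFOGER and 145, 179 and 147 cpm with IKVAV. The cell lines overlapped within each mimic, and the mimics overlapped in MDA-MB-231 cells but not in T47D cells. The log2 difference between the cell lines was 0.17 with GFOGER (95% interval -0.066 to 0.4, edgeR adjusted p = 0.176) and 0.038 with IKVAV (95% interval -0.22 to 0.3, edgeR adjusted p = 0.787), so these intervals exclude a 2-fold difference in either direction. For GFOGER against IKVAV it was -0.17 for MDA-MB-231 cells (95% interval -0.42 to 0.077, edgeR adjusted p = 0.255) and -0.29 in T47D cells (95% interval -0.51 to -0.079, edgeR adjusted p = 0.315). The interaction was 0.13 (95% interval -0.22 to 0.48, edgeR adjusted p = 0.632).

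Single libraries moved CD47 across the threshold. Without MDA-MB-231 GFOGER replicate 3, the lowest library of its group, CD47 was higher in MDA-MB-231 than in T47D cells with GFOGER, by 0.3 on the log2 scale (adjusted p = 0.0076), and with both libraries that stood apart left out by 0.29 (adjusted p = 0.000943, the lowest of 20 alternatives, which reached 0.589). Without T47D IKVAV replicate 3, the log2 fold change between the mimics in T47D cells was -0.34 (adjusted p = 0.0264, the lowest of 15 alternatives, which reached 0.792). The CD47 interaction was 0.3 with both libraries that stood apart left out (adjusted p = 0.0491, the lowest of its 20 alternatives, which reached 0.978). These counts leave aside the 2-fold threshold inside the test, where each adjusted p was 1.

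Of the 4 members tested in MDA-MB-231 cells between the mimics, 0 met edgeR's adjusted p of 0.05 together with a 2-fold difference, against 9.57% of the 14090 genes tested. Of the genes tested 3.12% were called higher and 6.46% lower with GFOGER. DESeq2 also called 0 members, but the share of all genes called by DESeq2 is not given here. In edgeR 3 of the 4 had an unadjusted p below 0.05, as had 50.2% of the genes tested. By the adjusted p alone 2 of the 4 passed, THBS1 higher and THBS3 lower, where the background was 42.8%, with 21.4% higher and 21.4% lower. In T47D cells edgeR called 0 of 4 members, against a background of 0.022% of 13639 genes called and 0.044% by the adjusted p alone. DESeq2 also called 0, again without a share of all genes. An unadjusted p below 0.05 in edgeR was found for 2 of the 4 members and for 11.2% of the genes.

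Between the cell lines 4 of the 5 members tested were called with either mimic, and the same genes each time. THBS1 and THBS2 were higher and THBS3 and CD36 lower in MDA-MB-231 cells. CD36 and THBS2 passed the count filter only through the line in which they were high, so these calls are no support for a difference in the family, and with at least 10 counts in every library 2 members were called, THBS1 and THBS3. With GFOGER 46.9% of 15310 genes were called (23.7% higher in MDA-MB-231 cells and 23.2% lower), and with IKVAV 45.9% (23.6% higher, 22.3% lower). The interaction was called for 1 of 5 members, THBS1, against 6.43% of genes (2.25% higher and 4.18% lower), and by the adjusted p alone for 2, THBS1 and THBS3, against 21.1%. The comparisons of the cell lines and of the mimics use the same libraries and are not independent of each other.

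**Figure D3:**
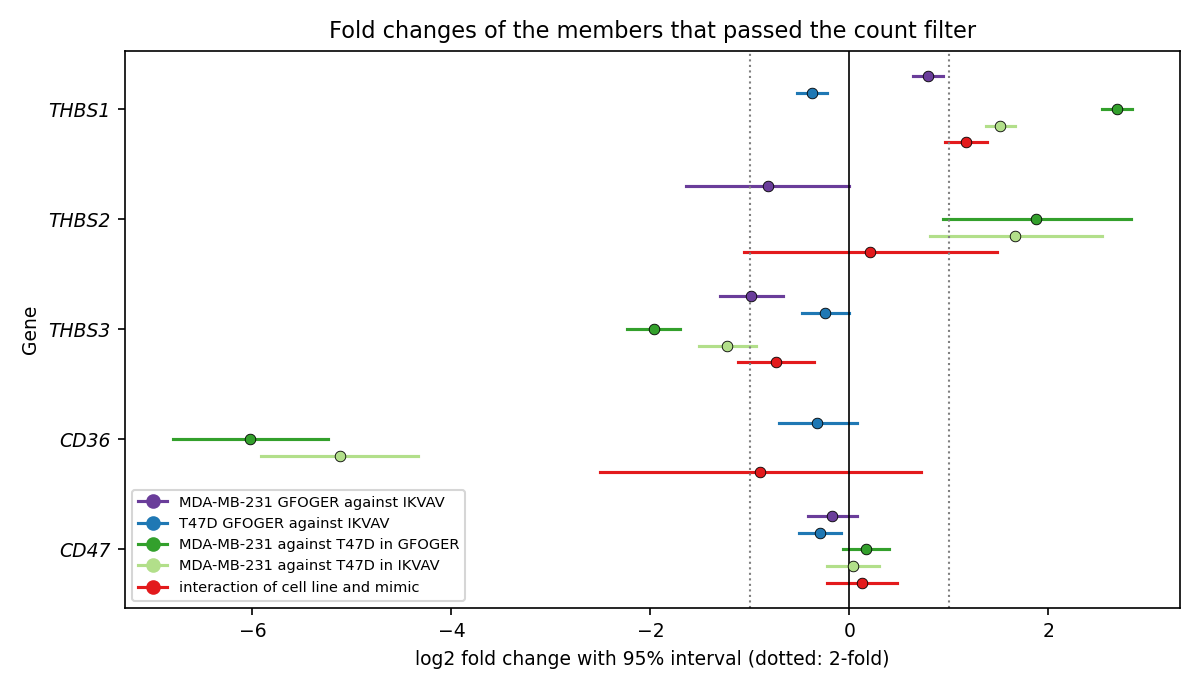
Log2 fold changes of the 5 members that passed the count filter, with 95% intervals, in the 5 comparisons, with dotted lines at a 2-fold difference. THBS1 lies on opposite sides of 0 for the mimics in the 2 cell lines (0.79 and -0.37), CD36 has the widest difference between the lines (-6.02 and -5.12), and CD47 stays near 0.

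Other receptors and partners of thrombospondins were described from a list of 20 genes, and counts were high enough for a test of 17 in MDA-MB-231 and 15 in T47D libraries. For MDA-MB-231 1 was called higher with GFOGER and 0 lower, against 3.12% and 6.46% of all genes tested, and by the adjusted p alone 4 were higher and 4 lower, where the background was 21.4% in each direction. The median log2 fold change was -0.016, against 0.0039 over all genes tested. The called gene was ITGA6, the α6 integrin subunit of laminin receptors, at 945 ± 63.7 cpm with GFOGER and 414 ± 10.4 cpm with IKVAV (SD, n = 3 and 2), a log2 fold change of 1.19 (SE 0.0877, edgeR adjusted p = 2.44e-08). With the 2-fold threshold inside the test, 0 genes of the list were called, but the share of all genes called by that test is not given here.

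The syndecans SDC1 and SDC4, heparan sulfate proteoglycans of the cell surface, rose with GFOGER by 0.78 and 0.39 on the log2 scale, and ITGA5, the α5 subunit of the fibronectin receptor, by 0.4 (edgeR adjusted p = 3.65e-05, 0.00132 and 0.00358). PTPRJ, a receptor tyrosine phosphatase, fell by 0.82 from 737 ± 43 to 419 ± 4.73 cpm (edgeR adjusted p = 5.3e-07). The integrin subunit ITGB3 fell by 0.85, the calcium channel subunit CACNA2D1 by 0.86 and the endocytic receptor LRP1 by 0.48 (edgeR adjusted p = 0.000147, 0.00115 and 0.00112). The other subunits of thrombospondin-binding integrins did not pass, with ITGAV at -0.14, ITGA3 at 0.18 and ITGB1 at 0.061. CALR, which acts with LRP1 at the cell surface, was at -0.0055, the CD47 ligand SIRPA at -0.3 with 1.73 and 2.11 cpm, STIM1 at -0.077, the perlecan gene HSPG2 at -0.24, and the CD36 relatives SCARB1 and SCARB2 at 0.22 and -0.016.

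In T47D cells edgeR called 0 of 15 of these genes, against 0.022% of all genes tested. DESeq2 also called 0, with no share of all genes given here. In edgeR 0 passed the adjusted p alone, against 0.044%, and 5 had an unadjusted p below 0.05, against 11.2%. The median was 0.11, against -0.001 over all genes. ITGA6 was at 85.3 ± 5.68 and 86.9 ± 4.4 cpm (SD, n = 3 each) with a log2 fold change of -0.026. ITGA5 was at 0.47, STIM1 at 0.3 and HSPG2 at -0.41 (edgeR adjusted p = 0.292, 0.337 and 0.389). ITGB3 and CACNA2D1 averaged at most 0.24 cpm in T47D cells and were not tested. The interaction was called for ITGA6 (1.22, edgeR adjusted p = 7.71e-07) and passed the adjusted p alone for SDC1 at 0.52, SDC4 at 0.36 and PTPRJ at -0.93 (edgeR adjusted p = 0.0195, 0.0213 and 7.48e-06), while 6.43% of all genes were called and 21.1% passed the adjusted p alone. ITGA4, SIRPG and NID1 had at most 8 reads in any library and were not tested in either line.

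**Figure D4:**
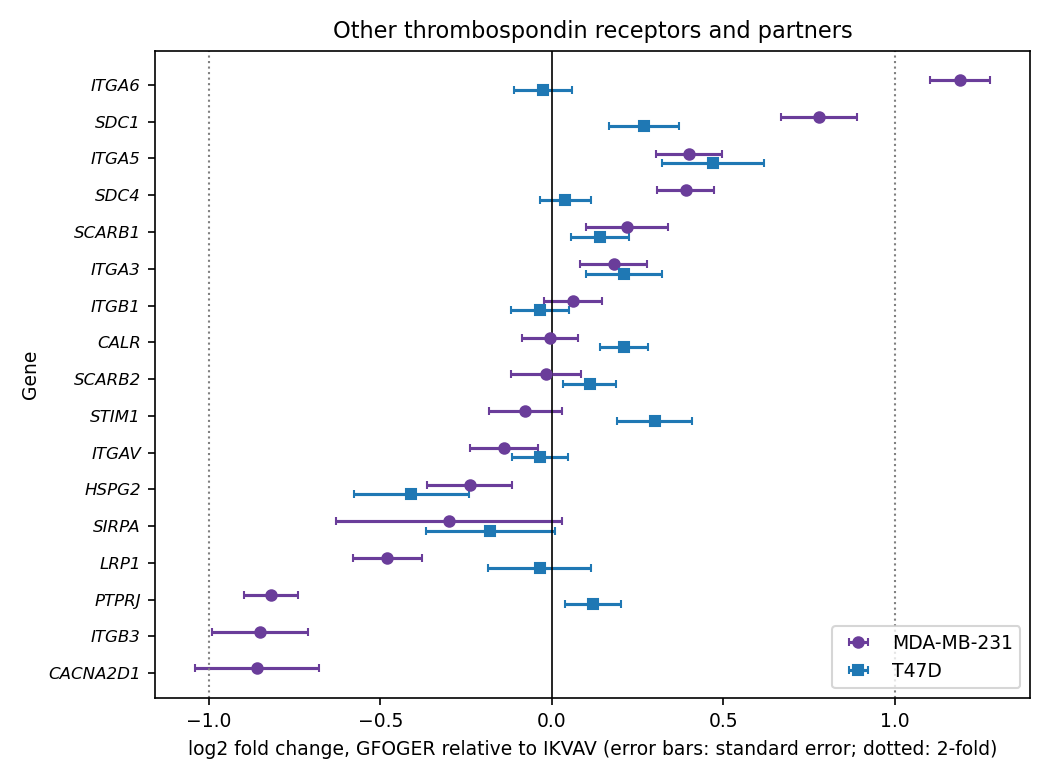
Log2 fold changes for GFOGER relative to IKVAV of the 17 other receptors and partners tested, with standard errors, in MDA-MB-231 cells (circles) and T47D cells (squares, 15 genes). ITGA6 is the one gene past the 2-fold line, at 1.19 for MDA-MB-231 and -0.026 for T47D cells.

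Other proteins with type 1 repeats, which share this domain with THBS1 and THBS2, were compared between the mimics in MDA-MB-231 cells. Of 23 listed genes 13 were tested, 1 was called higher and 6 lower with GFOGER, against 3.12% and 6.46% of all genes tested, and the median was -0.71, against 0.0039 over all genes. The list does not cover every protein with the repeat. It leaves out the ADAMTS proteases, which were not described here, and the CCN proteins, which are counted below with the matricellular proteins. THSD4, a matrix protein that binds fibrillin, rose by 1.12 from 34.6 ± 2.78 to 75.6 ± 0.263 cpm (edgeR adjusted p = 7.99e-07). SSPO fell by 2.86 and SEMA5A, an axon guidance semaphorin, by 2.08 (edgeR adjusted p = 8.75e-06 and 0.000806), both from means below 4 cpm with IKVAV. In the interaction 1 of 14 genes was called higher and 3 lower, where the background was 2.25% and 4.18%.

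Among 17 other matricellular proteins, 9 were tested, 4 were called higher and 2 lower with GFOGER in MDA-MB-231 cells, beside the same background of 3.12% and 6.46%, and the median was 0.33. CYR61, a CCN family protein that binds integrins, rose by 1.69 from 617 ± 17 to 1998 ± 113 cpm (edgeR adjusted p = 1.67e-10). SPARC, a collagen-binding glycoprotein, rose by 1.96 and the CCN family member WISP2 fell by 2.74 (edgeR adjusted p = 0.00872 and 0.000457), from levels of 0.308 and 1.47 cpm. TNXB, whose reads can be shared with a near-identical pseudogene and which is therefore uncertain, fell by 1.01 (edgeR adjusted p = 0.000142). The interaction was called for 5 of 10 of these genes, 4 higher and 1 lower, against 6.43% of all genes tested (2.25% and 4.18%).

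Genes of latent TGF-β and its activation, a process in which THBS1 takes part, numbered 12 tested of 15. In MDA-MB-231 cells 1 was called higher and 2 lower with GFOGER (background 3.12% and 6.46%), 7 passed the adjusted p alone as lower and 2, MMP9 and MMP14, as higher, where the background was 21.4% in each direction, and the median was -0.71. LTBP3, which binds latent TGF-β to the matrix, fell by 2.25 from 198 ± 6.5 to 42 ± 4.75 cpm, and ITGB8, an integrin subunit that activates TGF-β, fell by 1.72 (edgeR adjusted p = 1.24e-10 and 5.78e-07). MMP9, a gelatinase, rose by 1.11 (edgeR adjusted p = 0.000683). Of 16 TGF-β response genes, all tested, 1 was called higher and 3 lower beside the same background, with a median of -0.28. ID2, a helix-loop-helix inhibitor, fell by 1.5 and SMAD6, an inhibitory SMAD, by 1.07 (edgeR adjusted p = 6.79e-06 and 9.4e-05). With the 2-fold threshold inside the test 0 of the response genes were called. The share of all genes called by that stricter test is not given here, so this count has no background.

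A list of 17 genes was made for fatty acid handling, the other known role of CD36. It also holds the kinases FYN, LYN and YES1, which are not genes of fatty acid handling. In MDA-MB-231 cells 15 were tested, 1 was called higher and 1 lower (background 3.12% and 6.46%), and the median was 0.033. PPARG, the nuclear receptor known to activate CD36, rose by 1.58 from 7.13 ± 1.01 to 21.5 ± 2.12 cpm (edgeR adjusted p = 1.46e-06), in cells that had 1 to 5 CD36 reads per library. FABP3, a fatty acid binding protein, fell by 1.41 (edgeR adjusted p = 0.00505). PPARG averaged 0.0389 and 0.0813 cpm in T47D cells, the line with CD36. Of 16 angiogenesis regulators 14 were tested, 1 was called higher and 1 lower beside the same background, with a median of -0.21. EDN1, the vasoconstrictor endothelin, rose by 1.52 and ANGPT1, a ligand of the TEK receptor, fell by 2.05 (edgeR adjusted p = 8.16e-08 and 1.98e-07). In T47D cells edgeR called 0 of the 64 genes tested from these 6 lists, against 0.022% of all genes tested. In edgeR 8 had an unadjusted p below 0.05, against the same 11.2%. DESeq2 also called 0 of them, with no share of all genes given here.

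MUC1, a membrane mucin, is a near neighbor of THBS3 and was chosen after its values were seen. The gap between the genes was 2673 bases. In MDA-MB-231 cells MUC1 was 26.1 ± 3.63 cpm with GFOGER and 213 ± 25.7 cpm with IKVAV, a log2 fold change of -3.04 (SE 0.119, edgeR adjusted p = 1.75e-11), and in T47D cells the fold change was 0.13 (edgeR adjusted p = 0.579). MTX1, at 718 bases from THBS3 and chosen in the same way, was at 0.36 in MDA-MB-231 cells (edgeR adjusted p = 0.0443), opposite in sign to THBS3. Both neighbors are separate genes in the count table, and the part of neighboring transcription in the THBS3 counts was not tested.

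The genes whose profiles were most like those of the members were found by Pearson's r of log2 cpm across the 11 libraries, among 11145 genes. For THBS1 they included CXorf26 (r = 0.9961) and FSTL1 (0.9958). FSTL1, a secreted glycoprotein, averaged 290.5 cpm with GFOGER and 129 cpm with IKVAV in MDA-MB-231 cells, and 9.51 and 13.9 cpm in T47D cells. For THBS3 they were RNF41 (0.9927), ITPKC (0.9918) and VWA1 (0.9915), and for CD36 CDH10 (0.9974), CSTF2T (0.997) and FBXW2 (0.997). THBS2 was most like HERPUD1 (0.9555), FAM13A (0.9432) and WDR48 (0.9413), and CD47 most like BTAF1 (0.9266), ZNF765 (0.9121) and DCUN1D4 (0.8879). The libraries form 2 cell lines, which any gene that differs between the lines shares, so these values are a description.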

How the data were processed

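The authors prepared stranded poly(A) libraries and read them from a single end. Per the submitters' processing notes, the tools were FastQC, Trim Galore 0.4.4, TopHat2 2.1.0, bedtools 2.17, SAMtools 1.4, HTSeq 0.6.1p1 and edgeR 3.16.5, and the build was hg19. The strand option and the annotation are not given in the sources used here. The deposited values are read counts per gene, which were used for all results, and RPKM values made by the authors, used only for the library totals they imply. Of 24656 table entries, 1 per symbol was kept (23368). Levels per kb used the length column of the table, which exceeds the coding sequence.

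Counts were analysed with R 4.3.3 and edgeR 4.0.16 (TMM, filterByExpr, quasi-likelihood test, Benjamini-Hochberg adjustment over all genes tested). The mimics were compared in a separate fit per cell line, and the cell lines and the interaction in a fit of all 4 conditions. Genes were called at an adjusted p below 0.05 and a 2-fold difference. Standard errors were derived from the F statistic. The tests were checked on simulated counts. Alternatives included DESeq2 1.42.0, other normalizations and filters, a replicate block and leaving out each library. A robust estimate of the spread, and leaving out both libraries that stood apart, were added after seeing the data. Members and lists were chosen with earlier results of these data known. All members and all listed receptors and partners were named, and in each other list up to 2 called genes with the largest increase and 2 with the largest decrease. VIM, CDH1 and ESR1 were named as a check of the labels, and for each member the 3 most similar profiles among genes whose mean log2 cpm reached 2. Some genes that this rule covers are not reported here.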

Additional observations from a re-analysis of the deposited data

Results flagged for a closer look

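The response to GFOGER against IKVAV differed between the cell lines for 2 members by the adjusted p of the interaction term in the fit over all 11 libraries, which 21.1% of genes also passed. With the 2-fold rule, 1 of the 5 members tested was called, THBS1, and it was not called when the test itself asked for more than a 2-fold difference (adjusted p = 0.543). For THBS1 the difference of the log2 fold changes, MDA-MB-231 minus T47D, was 1.17 (edgeR adjusted p = 1.56e-07), with all 3 GFOGER libraries above both IKVAV libraries in MDA-MB-231 cells and all 3 below all 3 IKVAV libraries in T47D cells. For THBS3 it was -0.74 (edgeR adjusted p = 0.00743), and -0.59 without MDA-MB-231 IKVAV replicate 1 (adjusted p = 0.0671), with GFOGER below IKVAV in MDA-MB-231 cells and overlapping ranges in T47D cells.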

How the results depend on the processing

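Among the recomputed counts of the gene lists, 644 were classed as the same and 49 as moved. Of 99 recomputed counts of called members, 89 stayed within 1.5 times the reported count. In the cell line comparisons some of these left out a library of the other mimic, which is not part of the contrast. The 89 therefore overstate the stability. In MDA-MB-231 cells the count of 0 for the mimics became 1 with upper-quartile normalization, 1 with library size alone and 2 by the adjusted p alone, and 0 to 2 when each library was left out. Between the cell lines, at least 10 counts in every library left 2 called members with GFOGER and 2 with IKVAV, because CD36 and THBS2 were then not tested. The interaction count of 1 became 0 with the 2-fold threshold inside the test and 2 by the adjusted p alone. THBS3 in T47D cells turned to 0.012 with the set of implied RPKM totals in the fit, which compares GFOGER with IKVAV replicate 3 alone. CD47 between the lines with IKVAV turned to -0.032 with upper-quartile normalization, -0.022 with library size alone and -0.007 with both libraries that stood apart left out, and ranged from -0.0087 to 0.15 when each library was left out. The THBS2 interaction ranged from -0.27 to 0.87 when each library was left out. The cause of the other shifts was not tested.

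Libraries with the same replicate number did not deviate together from their group means (correlations between -0.185 and 0.0425), so the numbers were not taken as pairs. With the replicate number as a block, 1 member was called in MDA-MB-231 cells, THBS3 at -1.02, and CD47 between the lines with IKVAV was -0.00075. The block changed no other call of a member. Fewer than 10 reads for THBS4, COMP and, in MDA-MB-231 cells, CD36 limit what can be said of them.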
